A study of Mus musculus with 3 samples.

Results

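Cmss1, Cdk8, Gphn, Lars2 and Gm26561 are 5 of the 10744 mouse genes with at least 1 RBFOX2 crosslink cluster on their strand in primary hepatocytes. They were chosen by their summed counts, so counts and shares are given as a description and without a test. A cluster was given to a gene when it lay on the gene's strand with its midpoint inside the GENCODE M21 span (GRCm38). By this rule the 5 genes held 194 of 87021 clusters and 103693 of 2850863 counts (3.64%).

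The data come from enhanced individual-nucleotide-resolution UV crosslinking and immunoprecipitation (eiCLIP), in which reverse transcription stops at the crosslinked base and the start of each cDNA marks the contact of protein and RNA. The 3 libraries formed a single group. They came from primary hepatocytes of C57BL6/J mice on a control diet, crosslinked with 150 mJ/cm2 of UV light and immunoprecipitated with the RBM9 (RBFOX2) antibody. The methods give 3 independent cultures, each pooled from a pair of mice, while the labels give 3 livers and 3 pellets, and the series' design text has the cells plated and left overnight before UV. Clusters had been called on the sum of the libraries, so that a single list was analysed, with no spread between libraries and no untreated or input control used here. The intervals below are exact binomial (Clopper-Pearson) 95% intervals and cover counting error only. Over all clusters the median count was 17, the lowest count was 10 and the median width was 18 nt. All 8 hepatocyte marker genes had a cluster, with sums from 11 (Cyp2e1) to 8110 counts (Alb) and a median of 438. For Kupffer, endothelial and stellate cells 1 of 4 markers each had one (15, 12 and 150 counts), and for cholangiocytes 0 of 4.

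RBFOX proteins are splicing factors that recognise GCAUG in RNA, written GCATG below in its DNA form, and they often bind introns beside regulated exons. The 5 genes have unrelated roles. Cmss1 encodes a protein associated with the small ribosomal subunit. Cdk8 encodes the kinase of the Mediator kinase module, and Mediator is the complex that joins transcription factors to RNA polymerase II. Gphn encodes gephyrin, which completes molybdenum cofactor synthesis and anchors inhibitory receptors at synapses. Lars2 encodes the leucyl-tRNA synthetase of mitochondria, which charges tRNA with leucine. Gm26561 is annotated as a lincRNA gene, and its span overlaps Lpin2, a phosphatidate phosphatase gene, and Myom1, a gene for a muscle M-band protein. Mouse Lars2 is also known for a stretch of its 3′ UTR that is related to large-subunit ribosomal RNA.

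The sequences that bear on the Lars2 signal are shown first because its highest cluster was the only dominant one covered by annotated exons. Each is 5′ to 3′ on the plus strand of chromosome 9 (GRCm38), taken from GENCODE M21 transcripts and at most 30 bases long, and capitals mark the whole of a narrow cluster.
Lars2 highest cluster, first bases (chr9:123461878-123461907): ggaatacagaccgtgaaagcggggcctcac
Lars2 696-count cluster (chr9:123462065-123462094): gattgttcaccCACTAATAgggaacgtgag
Lars2 167-count cluster (chr9:123462120-123462149): gttagttttacccTACTgatgatgtgttgt
Lars2 stretch also found in AA474408 (chr9:123461942-123461971): tgtcagaaaagttaccacagggataactgg
Lars2 stretch also found in Gm15564 (chr9:123462048-123462077): gaattcaccaagcgttggattgttcaccca
None of these runs holds GCATG. The highest clusters of Cmss1, Cdk8, Gphn and Gm26561 lay inside introns and outside all annotated exons, and no sequence was read for them.

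Nearly all counts of the 5 genes lay in 5 short stretches. Clusters were chained into a group when the gap between neighbours was at most 200 nt, and the group with a gene's highest cluster was 200 to 498 nt wide. The 5 groups held 29 clusters and 99906 counts, or 3.50% of all counts in the list. The other 165 clusters of these genes held 3787 counts, with a median of 16 and a median width of 14 nt, beside 17 and 18 nt over the whole list. Among 73297 groups in the list the 5 groups with the highest clusters of these genes ranked 3, 7, 8, 9 and 11.

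**Figure D1:**
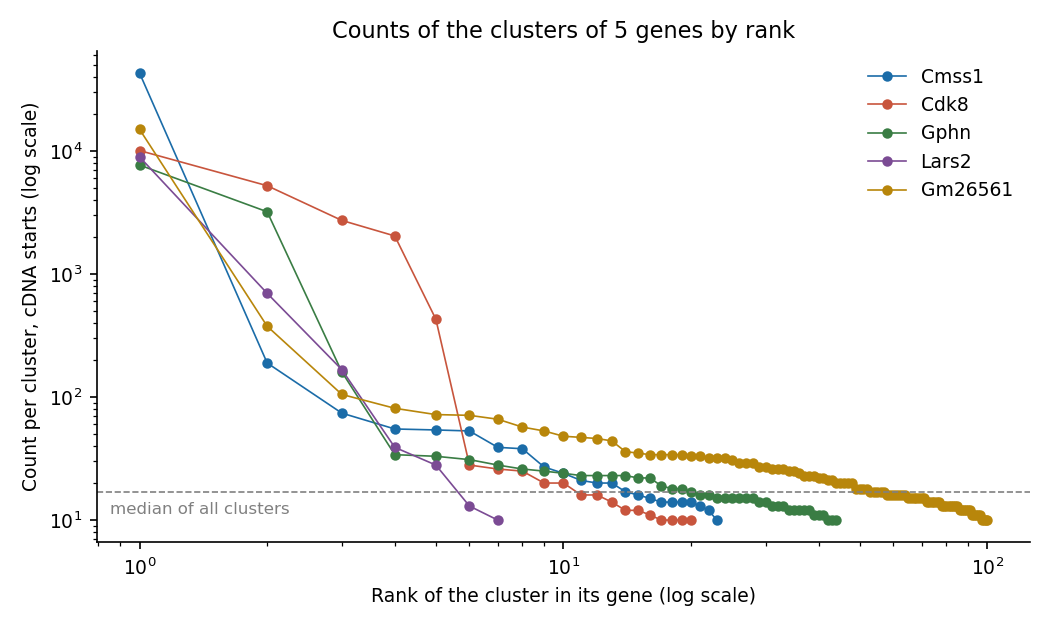
Count of every cluster of Cmss1, Cdk8, Gphn, Lars2 and Gm26561 (y axis, log scale) against the rank of the cluster in its gene (x axis, log scale), pooled over 3 libraries. From between 7672 and 42884 at rank 1 the count dropped to 189 at rank 2 in Cmss1, while in Cdk8 it stayed at 429 or more up to rank 5 and was 28 at rank 6. The dashed line is the median of all clusters (17).

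Cmss1 (ENSMUSG00000022748.8, chromosome 16, 57302000 to 57606864, minus strand) had 43637 counts in 23 clusters and was at rank 3 of all genes. Its highest cluster, at 57391503 to 57391682, was 180 nt wide and held 42884 counts, which is 98.3% (98.1 to 98.4) of the gene. The second cluster held 189 counts, or 0.433%, so that the first was 227 times higher. Within the whole list the highest Cmss1 cluster ranked 2. The nearest exons of any Cmss1 transcript, retained-intron transcripts left out, lay 52810 nt upstream and 67959 nt downstream of it. In the transcript used to number introns, the cluster lay in intron 1 of 9, which is 283122 nt long and not bounded by both of these exons. Its group of 11 clusters held 43425 counts (99.5%), and the 10 smaller clusters all began 232 to 494 nt downstream of the start of the highest, with 14 to 189 counts each. No cluster on either side was close to this group, as the next lay 64243 nt upstream and 7196 nt downstream. The 12 remaining Cmss1 clusters, all intronic, held 212 counts together, between 10 and 39 each. On these alone the gene would have ranked 1955.

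Cdk8 (ENSMUSG00000029635.15, chromosome 5, 146231230 to 146302874, plus strand) had 20708 counts in 20 clusters and was at rank 5. Its highest cluster, at 146261231 to 146261259, was 29 nt wide and held 10065 counts, or 48.6% (47.9 to 49.3). This gene was thus not dominated by a single cluster, whose share stayed below 50%. The second cluster, only 3 nt wide, began 150 nt upstream and held 5214 counts (25.2%), and both together made 73.8%. The next clusters, of 14, 18 and 1 nt, held 2724, 2036 and 429 counts. The 5 clusters formed a group at 146260990 to 146261259, 270 nt wide, with 20468 counts (98.8%), so that Cdk8 was dominated by a short stretch with several steep positions. At 1738 counts per nt the second cluster was the steepest of the 29 group clusters, against 347 per nt in the highest Cdk8 cluster and 238 per nt in that of Cmss1. The group lay in intron 2 of 12 (8634 nt), with the highest cluster 1650 nt from the upstream exon and 6955 nt from the downstream one. The 15 clusters outside it held 240 counts and at most 28 each, with 9 in introns, 4 in non-coding exons, 1 in the coding sequence and 1 in the 3′ UTR.

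Gphn (ENSMUSG00000047454.12, chromosome 12, 78226379 to 78684772, plus strand) had 11755 counts in 44 clusters and was at rank 9. The highest cluster, at 78350861 to 78350933, was 73 nt wide and held 7672 counts, or 65.3% (64.4 to 66.1). The second, at 78351058 to 78351072, was 15 nt wide and held 3202 counts (27.2%). The pair made 92.5% of the gene, and the third cluster held 160 counts (1.36%). These 3 clusters formed a group of 282 nt with 11034 counts, in intron 2 of 23 (32929 nt), 7430 nt from the upstream exon. The other 41 clusters were all intronic and held 721 counts, between 10 and 34 each with a median of 15. Of all Gphn clusters, 4 with 78 counts lay in Gm48225 as well.

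Lars2 (ENSMUSG00000035202.8, chromosome 9, 123366927 to 123462666, plus strand) had 9887 counts in 7 clusters and was at rank 11. It was the only member whose highest cluster was exonic. This cluster lay in the 3′ UTR at 123461878 to 123462012, was 135 nt wide and held 8934 counts, or 90.4% (89.8 to 90.9). The second 3′ UTR cluster, at 123462076 to 123462083, held 696 counts (7.04%), and the third, at 123462133 to 123462136, held 167. Another 3 clusters with 13, 28 and 39 counts began 50 to 89 nt upstream of the highest, and all 6 formed a group of 348 nt with 99.9% of the counts. Only 1 Lars2 cluster lay elsewhere, in the coding sequence 89756 nt upstream, and it held 10 counts, the lowest count in the list.

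Gm26561 (ENSMUSG00000097625.1, chromosome 17, 70878078 to 71393284, plus strand) had 17706 counts in 100 clusters and was at rank 6. Its highest cluster, at 70963648 to 70963798, was 151 nt wide and held 14963 counts, or 84.5% (84.0 to 85.0). It lay in intron 1 of 3 (218759 nt), 85536 nt from the upstream exon and 133072 nt from the downstream one. The group had 3 more clusters of 14, 20 and 105 counts that began 166 to 199 nt downstream, and came to 15102 counts (85.3%). Every one of the 96 clusters outside the group also lay in a second gene on the same strand, 91 with 2509 counts in Lpin2 and 5 with 95 counts in Myom1. The second highest cluster, with 376 counts (2.12%), was among those in Lpin2. No cluster outside the group lay in Gm26561 alone, so that with shared clusters left out, a choice made after the data were seen, the highest cluster held 99.1% of the gene.

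**Figure D2:**
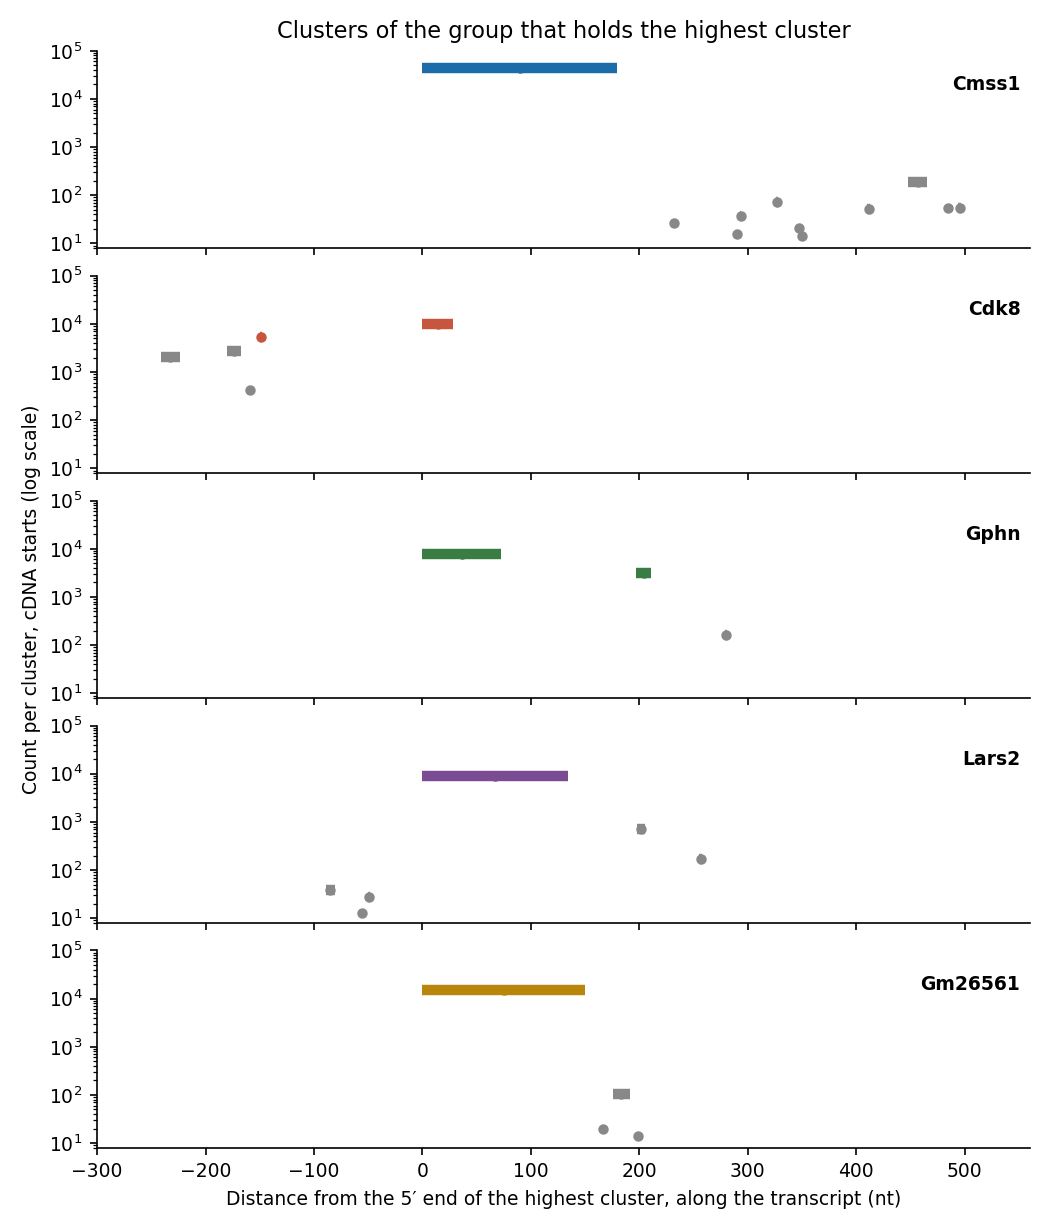
Clusters of the group around the highest cluster of each gene, by distance from the 5′ end of that cluster along the transcript (x axis, nt) and count per cluster (y axis, log scale). Horizontal bars span a cluster's width and dots mark its middle, so that narrow clusters appear as dots. Dominant clusters are coloured and the others grey. The smaller clusters lay downstream of the highest in Cmss1, Gphn and Gm26561, upstream in Cdk8 and on both sides in Lars2.

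The groups differed in shape. In Cmss1, Gphn and Gm26561 the highest cluster opened the group at its 5′ end, in Cdk8 it closed the group at its 3′ end, and in Lars2 it was flanked on both sides. The highest clusters of Cmss1, Gm26561 and Lars2 were 135 to 180 nt wide, while those of Gphn and Cdk8 were 73 and 29 nt wide. With each count divided by the cluster width, the cluster with the most counts stayed in first place in Cmss1 (50.7% of the summed counts per nt) and Gm26561 (19.1%). First place passed to the second cluster by count in Cdk8 (3 nt wide, 61.2%), Gphn (15 nt wide, 47.4%) and Lars2 (8 nt wide, 39.1%). The highest clusters of these genes by count then held 12.2%, 23.3% and 29.7%.

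Removing the dominant clusters lowered the ranks of the 5 genes to between 32 and 478, a fall that follows in part from their choice by summed count. A cluster counted as dominant when it was the highest of its gene, or the second with at least 10% of the gene's counts, which gave 7 clusters with 92934 counts. Without them Cmss1 kept 753 counts and fell from rank 3 to rank 478. Gphn kept 881 counts (rank 401), Lars2 953 (rank 363) and Gm26561 2743 (rank 96). Cdk8 kept 5429 counts and rank 32, because the clusters with 2724 and 2036 counts remained. With the whole group removed, Cdk8 held 240 counts (rank 1745), Gphn 721 (rank 509), Gm26561 2604 (rank 106) and Lars2 10 (rank 10352).

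The shares were read against those of other genes with many counts. Of 325 genes with at least 2 clusters and 1000 counts, 24 (7.38%) had a highest cluster with 50% or more of the sum, and 4 (1.23%) one with 90% or more. The 24 included Cmss1, Gphn, Lars2 and Gm26561, which were chosen for the counts behind these shares, and nothing is read from their number. The median share over the 325 genes was 12.8% (quartiles 6.91% and 22.9%). It was 31.9% among all 7010 genes with at least 2 clusters, of which 26.0% reached 50% and 0.171% reached 90%. Merging clusters within 200 nt, as in the groups above, raised the background as well, to 106 of 317 genes (33.4%) at 50% or more and 13 (4.10%) at 90% or more, with a median share of 29.9%. Just above the 50% line without merging stood Camk1d (54.6%) and Dync1i2 (53.8%), and just below it Map1lc3b (49.2%), Cdk8 (48.6%) and D230017M19Rik (47.9%). By summed count, Lars2 with 9887 stood just ahead of Selenop with 9531.

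**Figure D3:**
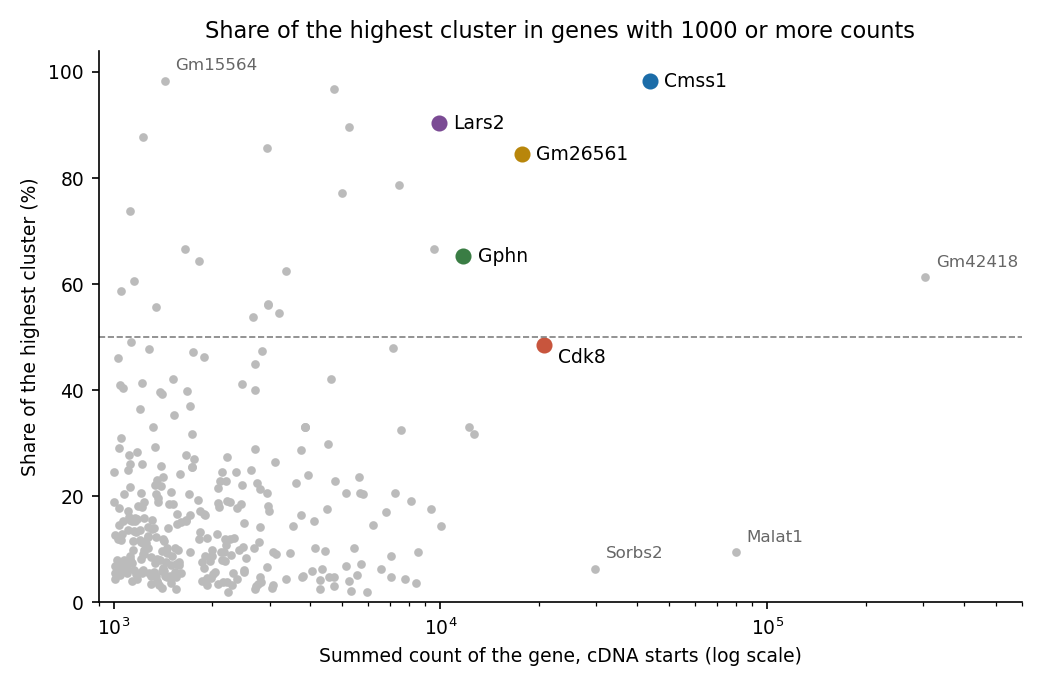
Share of the highest cluster (y axis, %) against the summed count (x axis, log scale) for 325 genes with 2 or more clusters and 1000 or more counts, pooled over 3 libraries. Cmss1, Gm26561, Lars2 and Gphn lie above the dashed line at 50% at high sums, Cdk8 just below it at 48.6%, and Malat1 and Sorbs2 reach high sums with shares under 10%.

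Genes with sums as high as those of the members could also have low shares. Malat1, a nuclear lincRNA gene, had 80115 counts in 107 clusters with 9.50% in the highest, and Sorbs2, a gene for a cytoskeletal adaptor protein, had 29708 counts in 687 clusters with 6.35% in the highest. Gm42418, a lincRNA gene that overlaps ribosomal RNA sequence, had the highest sum of all (304764) and a share of 61.3%. Among the highest shares were also Gm15564 (98.3%), Il31ra (96.8%), Eif4a2 (89.6%), Tmem56 (87.8%) and Gm19951 (85.8%). In Eif4a2, a translation initiation gene, the highest cluster lay on the small nucleolar RNA gene Snora81. In all, 4 of the 20 other genes past 50% had their highest cluster on an annotated small RNA gene, against 0 of the 4 members. Groups with no annotated gene on their strand reached similar sizes, with 36773 counts on chromosome 3 (5860324 to 5860791) and 28076 on chromosome 11 (109011687 to 109012101).

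The relatives of the coding members by function had lower sums and lower single clusters. The members were chosen by their summed counts, so nothing is read from this difference. In the Mediator kinase module 5 of 6 genes other than Cdk8 had a cluster, with sums of 40 to 330 (Med13l highest) and no cluster above 56 counts. Of 9 genes other than Gphn for the molybdenum cofactor and the enzymes that use it, 7 had a cluster, with sums of 17 to 960 (Marc2 highest) and at most 313 counts in a cluster. Of 18 other aminoacyl-tRNA synthetases that act in mitochondria, 13 had a cluster, with sums of 14 to 808 and at most 154 counts in a cluster. The highest of these was Gars, whose product also serves the cytosol. Of 11 other genes for small ribosomal subunit assembly, 9 had a cluster, with sums of 15 to 367 (Wdr43 highest) and at most 61 counts in a cluster. Among these genes with at least 2 clusters, a highest cluster with 50% or more was found in 1 of 5, 2 of 5, 3 of 11 and 0 of 8. All of these were at low sums, and over all 7010 genes with at least 2 clusters the share was 26.0%.

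The Lars2 sequence was compared with all annotated transcripts. The stretch had close copies in 2 other genes, and in both the copy carried a cluster. AA474408 (ENSMUSG00000073867.2), an unconfirmed gene model on the minus strand of chromosome 7, matched Lars2 at 158 of 162 aligned bases (97.5%, gaps left out) over 110059658 to 110059828. The aligned blocks lay at 55 to 102, 125 to 158 and 162 to 241 nt from the start of the highest Lars2 cluster. The only cluster of AA474408, at 110059707 to 110059869, held 586 counts, and 122 of its 163 bases were aligned. This cluster also lay in the gene 1600010M07Rik. Gm15564 (ENSMUSG00000086324.8), an antisense gene on the minus strand of chromosome 16, matched at 71 of 72 aligned bases (98.6%), of which 71 lay in the exon at 35981725 to 35981795. Its highest cluster, at 35981703 to 35981800, held 1410 of the gene's 1434 counts. The longest identical runs were 41 bases with AA474408 and 52 bases with Gm15564, and the runs printed above are their first bases.

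**Figure D4:**
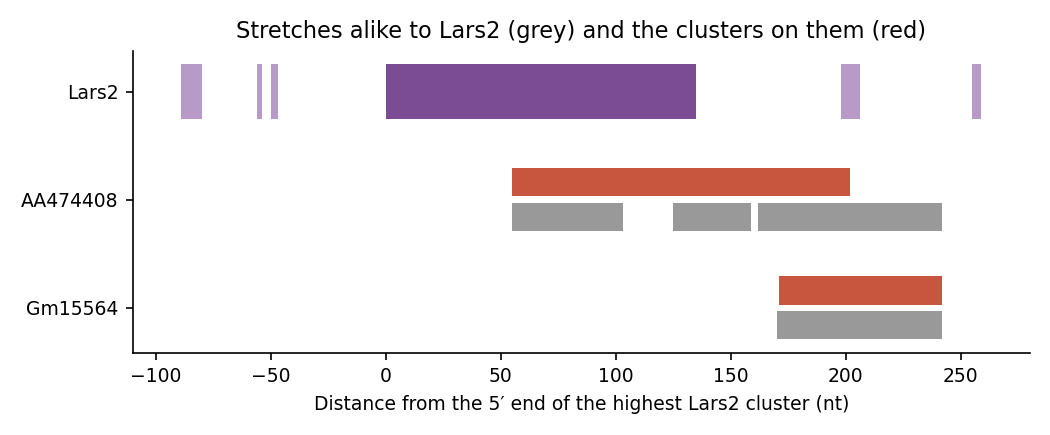
Map of the Lars2 3′ UTR stretch by distance from the 5′ end of its highest cluster (x axis, nt), with the Lars2 clusters (dark purple, the highest), the aligned stretches of AA474408 and Gm15564 (grey) and the part of each that lies in a cluster of that gene (red). The aligned part of the AA474408 cluster lay between 55 and 201 nt, and its red bar also crosses the gaps between the grey blocks. The aligned part of the Gm15564 cluster covered 171 to 241 nt, while the highest Lars2 cluster covered the first 135 nt.

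In Lars2 coordinates counted from the start of its highest cluster, the aligned part of the AA474408 cluster spanned 55 to 201 nt and so overlapped the highest Lars2 cluster. The edge at 55 nt was set by the alignment, because the AA474408 cluster runs on past the aligned stretch. The Gm15564 cluster spanned 171 to 241 nt and so lay over the second Lars2 cluster, which began at 198 nt. Its place was set by the alignment, because the Gm15564 copy covers only 170 to 241 nt. Reads were kept by the authors only when they aligned to 1 place in the genome, so a read lying wholly within an identical run of these genes would have been dropped. How the counts divide between the copies was therefore not tested. Of 19580 windows outside Lars2, 1 shared a run of 20 bases with its group, that of the AA474408 cluster, where a window is a cluster with 50 nt on each side and exon sequence throughout. The Gm15564 cluster was not in that count because exons cover its window only in part.

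Ribosomal RNA was searched for in the 35 member windows with sequence, 1 of them around a dominant cluster. The reference held 361 transcripts, 354 from annotated ribosomal RNA genes and the rest from mitochondrial ribosomal RNA, Gm42418, AY036118 and Gm26917, with lengths of 37 to 3329 nt. No member window (0 of 35) shared a run of 20 bases with it on either strand, nor a run of 16, against 1 and 164 of 19479 windows over the list. The longest exact match was 10 to 14 bases in the member windows and 11 bases around the highest Lars2 cluster. The large-subunit ribosomal RNA cut from the nuclear precursor transcript was not used as a reference here, and a match to it was not tested. For the highest clusters of Cmss1, Cdk8, Gphn and Gm26561 neither ribosomal nor repeat-like sequence was tested, and the 6 windows in a group were all from Lars2 and overlapped each other.

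Repeat-like sequence was looked for in the same windows. The window of the highest Lars2 cluster had 49.8% G and C and a longest run of 1 base of 5, beside medians of 45.9% and 5 over 19587 windows. A run of 20 bases was shared with another gene in 7 of 35 member windows, that of the highest Lars2 cluster included, against 29.7% of all windows. Of these 7, a Gphn window of a 10-count cluster shared one with 553 genes and held a run of 18 identical bases, and a Gm26561 window of a 16-count cluster shared one with 1651 genes. Neither was part of a group. Heptamers equal to a leading A and a library index, at 6 to 17 nt from the cluster, were found in 0 of 35 member windows and in 2.69% of all windows; the heptamers came from an earlier look at these data.

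The RBFOX motif could be looked for around 1 dominant cluster only, that of Lars2, since those of Cmss1, Cdk8, Gphn and Gm26561 had no sequence. GCATG was present in 13 of 35 member windows (37.1%), beside 20.1% of all windows with sequence. It was in 0 of 6 windows of the Lars2 group and in 13 of 29 windows outside the groups (44.8%). By gene the motif was in 4 of 4 windows in Cdk8, 1 of 2 in Cmss1, 2 of 5 in Gphn, 0 of 7 in Lars2 and 6 of 17 in Gm26561, all 17 of which lay in Lpin2 as well. The longer TGCATG was in 6 of the 35, beside 10.3% of all windows. Windows with sequence are those in annotated exons, retained introns included, and some of them overlap. Many come from the same gene, so the windows are not independent. No interval is given for these shares, and whether they differ from the share over all windows was not tested. Among the other genes past 50%, a window could be read around the highest cluster of 10, and 8 of these held GCATG, while the window of Lars2 did not. Those 10 clusters were 42 to 191 nt wide, against a median of 18 nt over the list. Their longer windows have more room for the motif, so they are not compared with the share over all windows.

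The motif runs of the coding members and 1 of Lpin2 are given below to show where the letters sat, with GCATG in capitals.
Cdk8, 25 counts (chr5:146290117-146290145, plus strand): cctggagcacgtGCATGtgtgtccctccc
Cdk8, 20 counts (chr5:146302478-146302506, plus strand): gctgatttgtgaGCATGctttctgaatac
Cdk8, 16 counts (chr5:146290333-146290361, plus strand): atgggctagtgaGCATGtatgttatctag
Cdk8, 10 counts (chr5:146290678-146290706, plus strand): cacatggctgctGCATGttggagaagtgg
Cmss1, 12 counts (chr16:57572117-57572145, minus strand): actctgaaaattGCATGcttggcgctgat
Gphn, 23 counts (chr12:78263214-78263242, plus strand): actgcatcgtttGCATGgtatgattttct
Gphn, 33 counts (chr12:78266040-78266068, plus strand): atcgatttaaagGCATGctgatcttaaaa
Gm26561 within Lpin2, 17 counts (chr17:71244801-71244829, plus strand): cacgtgccatcgGCATGgccgacatgacc
The motif began 11 nt before the 25-count Cdk8 cluster and 1 nt before the 10-count cluster. It began 38 nt before the 16-count cluster and 36 nt after the start of the 20-count cluster, which lay in the 3′ UTR. In Cmss1 it began 18 nt after the start of a cluster 1 nt wide. In Gphn it began 19 nt into the 23-count cluster and 86 nt into the 33-count cluster.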

How the data were processed

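RBFOX2 eiCLIP was performed on 3 libraries of primary mouse hepatocytes, which form 1 group in the labels. According to the methods and submitters' processing notes, the authors demultiplexed reads with CASAVA 1.8.4, trimmed adaptors with cutadapt (minimum 18 nt), aligned to GRCm38 with STAR 2.4.2a, kept unique alignments, removed duplicates by position and random barcode, and clustered cDNA starts with Paraclu in iMaps on the sum of the libraries. The deposited file gives a whole-number count per cluster, not normalised, taken here from its values to be cDNA starts. Its name states that rRNA was removed. Depth per library is unknown, and the summed count was 2850863.

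Clusters were assigned by strand and midpoint to GENCODE M21 (the methods name release M20, also on GRCm38). Sequence was read from M21 transcripts placed on the genome, so it exists only under annotated exons. Windows took 50 nt on each side. Words of 20 bases were searched on both strands, and Lars2 was aligned with Biopython 1.88. Python 3.11.15, numpy 2.4.6, pandas 2.3.3 and scipy 1.17.1 were used. The steps were tested on simulated data. No test was applied, because the members were chosen by their counts and the pooled list has no replicates.

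The members and lists were chosen with earlier results of these data known. Named were the 5 members with their dominant clusters and the highest of the rest, the highest related gene of each list, and genes from the 10 highest by sum and by share. AA474408, the genes near the thresholds and the motif windows were named after their values were seen. Merging, other thresholds, widths, strands and word lengths were tried as alternatives.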

Additional observations from a re-analysis of the deposited data

Results flagged for a closer look

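Clusters on the opposite strand of a member's span were not part of the comparisons. Gm26561 had 40 of them with a summed count of 1424, the highest with 437 counts in Myl12b, and 38 of the 40 lay in an annotated gene on that strand. None of them (0 of 40) was within 1000 nt of the group with the highest Gm26561 cluster. Cmss1, Cdk8, Gphn and Lars2 had 0 clusters on the opposite strand of their spans.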

How the results depend on the processing

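Of 45 alternatives over the reported values, 27 stayed close to the main value and 18 moved by more than the counting interval, or for counts by more than 1.5 times. Of the 45, 5 were chosen after seeing the data, 1 per gene. With clusters within 200 nt merged, the share of the highest cluster was 99.5% in Cmss1, 98.8% in Cdk8, 93.9% in Gphn, 99.9% in Lars2 and 85.3% in Gm26561. With counts divided by width, the highest value per nt held 50.7%, 61.2%, 47.4%, 39.1% and 19.1%, in Cdk8, Gphn and Lars2 as the second cluster by count. The 50% line was thus crossed downwards by Gphn, Lars2 and Gm26561 and upwards by Cdk8, which also crossed it after merging. With both strands it was 78.2% in Gm26561, and with clusters in more than 1 gene left out (the added alternatives) 99.1%. The number of genes at 50% or more, 24, became 106 after merging and 6 with counts divided by width, and 4 reached 90%. With only the highest cluster removed, Cdk8 kept 10643 counts and Gphn 4083. Windows with the motif numbered 6 for TGCATG against 13 for GCATG, where the share over all windows was 10.3% against 20.1%. With 20 nt on each side, GCATG was in 9 of 43 member windows, beside 12.3% of all windows, against 13 of 35 with 50 nt. That alternative was counted as close because the numbers of windows were compared and not their shares. No member window held a ribosomal RNA word under any of the word lengths and window sizes tried. The reference lacked the large-subunit ribosomal RNA of the nuclear precursor, so a match to that RNA was not tested. The highest clusters of Cmss1, Cdk8, Gphn and Gm26561 had no sequence to search.

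No paired analysis was possible because the 3 libraries were pooled into 1 list, and leaving out each library was not run for the same reason. Depth per library is unknown, clusters under 10 counts are not in the list, and sequence was read only under annotated exons.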
